A study of Mus musculus with 2 samples.

Results

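The genes described here encode the protein subunits of the mitochondrial ribosome and were read in the mouse hippocampus. A gene was taken as a member where its symbol was Mrpl or Mrps followed by a number, with at most 1 further letter, and where at least 1 of its transcripts was annotated as protein-coding. This rule found 78 of 55536 annotated mouse genes, 49 with a large subunit symbol (Mrpl) and 29 with a small subunit symbol (Mrps). It used no measured value. Subunits with other kinds of symbol, such as Dap3 and Ptcd3, were outside the rule and are given beside the members.

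Hippocampal total RNA came from male mice aged 36 days of the strain B6CASTF1/J, F1 hybrids with C57BL/6J and CAST/EiJ as parents. The libraries are biological replicates 1 and 2 of 1 group, each from 300 ng of RNA with ERCC spike-in transcripts and each with 1 technical replicate, and there was no treatment or second genotype. The labels name different biosamples but the same donor identifier, and the samples were taken as 2 animals on the strength of the replicate numbers. The tissue is labelled as a layer of the hippocampus without saying which part was dissected, and the deposited values do not separate the parental alleles.

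Mitochondria keep a small genome of their own, whose mRNAs encode core subunits of the respiratory chain and of ATP synthase. These mRNAs are translated inside the organelle by a ribosome with RNA from the mitochondrial genome and proteins encoded in the nucleus, made in the cytosol and imported. Some of these proteins descend from bacterial ribosomal proteins and others are found only in mitochondrial ribosomes. Defects in several of them cause failure of oxidative phosphorylation in energy-demanding tissues such as brain and heart.

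Each gene table held 28665109 (replicate 1) and 29633722 (replicate 2) expected counts, which are estimated reads per gene. All 19 markers of hippocampal neurons, glia and blood that were looked up reached 1 TPM in both libraries, where TPM is a relative abundance corrected for transcript length that sums to the same total in each table. Camk2a, a kinase abundant in forebrain excitatory neurons, stood at 1347 and 1414 TPM in replicates 1 and 2. Of these markers, 11 passed an adjusted p of 0.05 by the exact binomial test described below with no minimum on the fold, 4 higher in replicate 2 and 7 higher in replicate 1. Opalin, an oligodendrocyte gene, was apart, with 7.32 and 4.57 TPM, and Prox1, a dentate granule cell gene, had 32.9 and 45.1 TPM. Of 12 markers of the choroid plexus, the tissue that makes cerebrospinal fluid, 9 of the 11 with enough counts were apart between the libraries by the test described below, and were higher in replicate 2. The summed level of all 12 markers was 63.6 TPM in replicate 1 and 272 TPM in replicate 2, and none was at 0 in either library. Of these sums, Enpp2 held 52.4 and 75.4 TPM and Ttr held 3.62 and 179 TPM. In bulk tissue, fewer cells of a type and less RNA per cell cannot be told apart.

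Every member was expressed. All 78 reached 1 TPM in both libraries, a level passed by 57.8% of protein-coding genes (12733 of 22028). The median member stood at 21.9 TPM in replicate 1 and 21.3 TPM in replicate 2, where the expressed protein-coding genes had medians of 15.1 and 14.9 TPM. Of the members, 65 (83.3%) had a mean level between 10 and 40 TPM, where 42.5% of expressed protein-coding genes did, 7 were above 40 and 6 were below 10. Of the 78, 53 exceeded the median of expressed protein-coding genes and 12 exceeded its upper quartile of 32.9 TPM. All members together held 0.400% and 0.398% of the TPM of protein-coding genes. The SD of a member's TPM between the 2 libraries had a median of 0.817 TPM, or 4.30% of its mean.

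**Figure D1:**
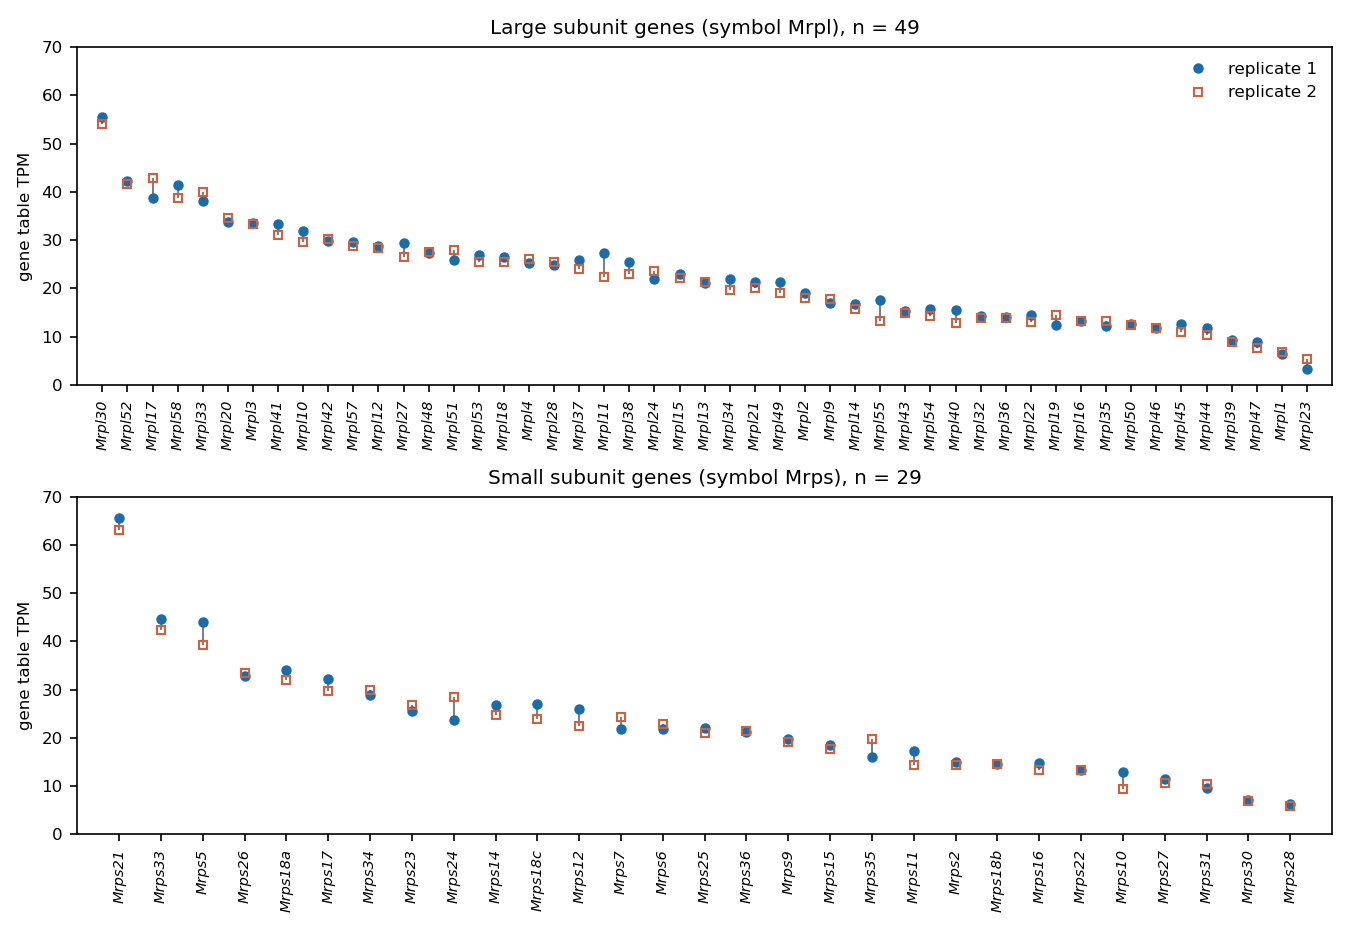
The level of each member in TPM from the gene table (linear axis) for the large subunit genes (upper panel, n = 49) and the small subunit genes (lower panel, n = 29), ordered by mean level, with replicate 1 as filled circles and replicate 2 as open squares joined by a line. Most members lie between 10 and 40 TPM, Mrps21 is highest at 65.6 and 63.0 TPM, and Mrpl23 is lowest at 3.18 and 5.44 TPM.

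The 2 subunits had like levels. Medians in replicates 1 and 2 were 21.8 and 21.3 TPM for the large subunit genes and 21.9 and 21.4 TPM for the small subunit genes. A division by ancestry, which leaves out Mrpl55, Mrps18a and Mrps36, covered 75 members and gave close values too. The 28 large subunit genes with bacterial relatives had medians of 21.9 and 21.7 TPM, and the 21 genes for large subunit proteins particular to mitochondria, Mrps30 among them because its protein sits in the large subunit, had 21.2 and 18.9 TPM. The 17 small subunit genes with bacterial relatives had 21.9 and 22.4 TPM, and the 9 genes for small subunit proteins particular to mitochondria had 22.11 and 21.03 TPM.

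The highest members came from both subunits. Mrps21, which encodes a small protein related to bacterial S21, was the highest, at 65.6 TPM in replicate 1 and 63.0 TPM in replicate 2. Mrpl30, a large subunit gene with a bacterial relative, followed at 55.4 and 54.1 TPM. Both libraries of each of these genes lay above both libraries of the next in the order. Mrps33 stood at 44.7 and 42.3 TPM, Mrpl52 at 42.2 and 41.6 TPM, Mrps5 at 44.0 and 39.3 TPM, and Mrpl17 at 38.7 and 42.8 TPM. Both libraries of Mrps33 lay above those of Mrpl52 but overlapped those of Mrps5 and Mrpl17. The libraries of Mrpl52, Mrps5 and Mrpl17 overlapped as well, so the order from Mrps33 to Mrpl17 was not settled. Mrpl58, which encodes a protein with the fold of a translation release factor that frees stalled ribosomes, had 41.5 and 38.8 TPM.

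The lowest member was Mrpl23, whose protein sits by the exit tunnel of the large subunit, at 3.18 TPM in replicate 1 and 5.44 TPM in replicate 2. Mrps28 stood at 6.40 and 5.90 TPM, Mrpl1 at 6.42 and 6.84 TPM, Mrps30 at 7.09 and 6.91 TPM, Mrpl47 at 8.86 and 7.65 TPM, and Mrpl39 at 9.23 and 8.95 TPM. At this end of the order the libraries of each gene were separated from those of its neighbours. In the whole order, 17 of 77 neighbouring pairs did not overlap between libraries, and in the middle of it most neighbours could not be ranked. The highest member stood 14.9-fold above the lowest, and 10.5-fold above the lowest when Mrpl23, which shared its reads with a pseudogene, was left out.

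Members with known roles of their own fell across the range. Mrpl10 and Mrpl12, which form the flexible stalk that recruits translation factors, stood at 31.9 and 29.6 TPM and at 28.8 and 28.4 TPM. Mrps12, the counterpart of a bacterial protein at the decoding centre, had 26.1 and 22.4 TPM. Mrpl32, whose precursor is cleaved by the m-AAA protease before assembly, had 14.3 and 13.9 TPM. By TPM all of these were higher in replicate 1, and the count test described below called none of them. In its scaled counts Mrpl32 was 1.04-fold higher in replicate 2, Mrpl12 was nearly equal, and Mrpl10 and Mrps12 were higher in replicate 1. Mrpl44, which carries an RNase III fold, had 11.8 and 10.3 TPM. Mrpl45, found where the ribosome meets the inner membrane, had 12.5 and 10.8 TPM, and Mrps27, a pentatricopeptide repeat protein, had 11.5 and 10.6 TPM. These 3 lay below the lower quartile of the members, which was 14.4 TPM in replicate 1 and 13.5 TPM in replicate 2.

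Mrpl41 was higher, at 33.4 and 30.9 TPM, than Mrpl40, which lies next to the histone chaperone gene Hira and had 15.6 and 12.8 TPM. Mrps22 and Mrps34, both disease genes of combined oxidative phosphorylation deficiency, stood apart from each other. Mrps22 had 13.3 and 13.4 TPM and Mrps34 had 28.98 and 30.03 TPM, with no overlap. Exons of Mapk8ip3 (opposite strand) and of Nme3 (same strand) overlap 63.4% and 37.0% of the Mrps34 exon bases. The value of Mrps34 may therefore include their reads. Mrps36, whose product has been described as part of the 2-oxoglutarate dehydrogenase complex, had 21.2 and 21.4 TPM, near the median of the members. The Mrps18 paralogs are related to 1 bacterial protein, and the product of Mrps18a sits in the large subunit. Mrps18a was the highest of them at 34.1 and 32.0 TPM, Mrps18c had 27.1 and 23.9 TPM, and Mrps18b had 14.6 TPM in each library. The libraries of the 3 paralogs did not overlap.

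The levels showed little relation to the length of the longest protein-coding transcript, with a Spearman correlation of −0.077 (n = 78 genes). Over the 78 members the correlation of mean TPM with effective length, the number of positions at which a read can start, was −0.44, where it was −0.0004 over 12733 expressed protein-coding genes. TPM is divided by this same length, so the measures share it. Between the libraries the TPM of the members had a Spearman correlation of 0.97 (n = 78 genes), and the libraries share the annotation and its lengths.

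The libraries differed little in these genes. Expected counts, rounded and scaled by TMM (a trimmed mean of log ratios), were compared by an exact binomial test, two-sided and adjusted by Benjamini-Hochberg over all 18270 genes with a mean count of at least 10. A gene was called apart at an adjusted p under 0.05 and a ratio of at least 1.5-fold. With 1 library per animal the test compares these libraries and has no replicate check. No member was apart, where 1.89% of all genes tested were. With no minimum on the fold, 0 of 78 members passed the adjusted threshold, where 11.4% of all genes did. At an unadjusted p under 0.05 there were 4 members, or 5.13%, where 21.8% of all genes and 19.8% of 7318 other protein-coding genes in the count range of the members reached it. They were Mrpl17, Mrps24 and Mrpl19, higher in replicate 2, and Mrpl55, higher in replicate 1. With DESeq2 size factors in place of TMM, 0 members were apart as well.

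The members lay closer to equality than all genes tested and than other protein-coding genes in their count range. Counts were not matched within that range. The median absolute log2 ratio was 0.061 in the members, 0.113 in all genes tested and 0.101 in the protein-coding genes of the same count range. Of the 78, 75 were within 1.2-fold between the libraries, or 96.2%, where 86.9% of the genes of the same count range and 76.6% of all genes tested were. The median log2 ratio of replicate 2 over replicate 1 was −0.018, beside −0.001 over all genes tested. By sign, 31 members were higher in replicate 2 and 47 in replicate 1. With the spike-in totals as the scale, the median over the members moved to 0.020 and that over all genes to 0.037, so the direction of the members' median depended on the scale. Choroid plexus markers differed between the same libraries by folds of up to 50.1 (Ttr, a thyroid hormone carrier). The part of these and of the other markers that differed in the members' ratios was not tested.

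**Figure D2:**
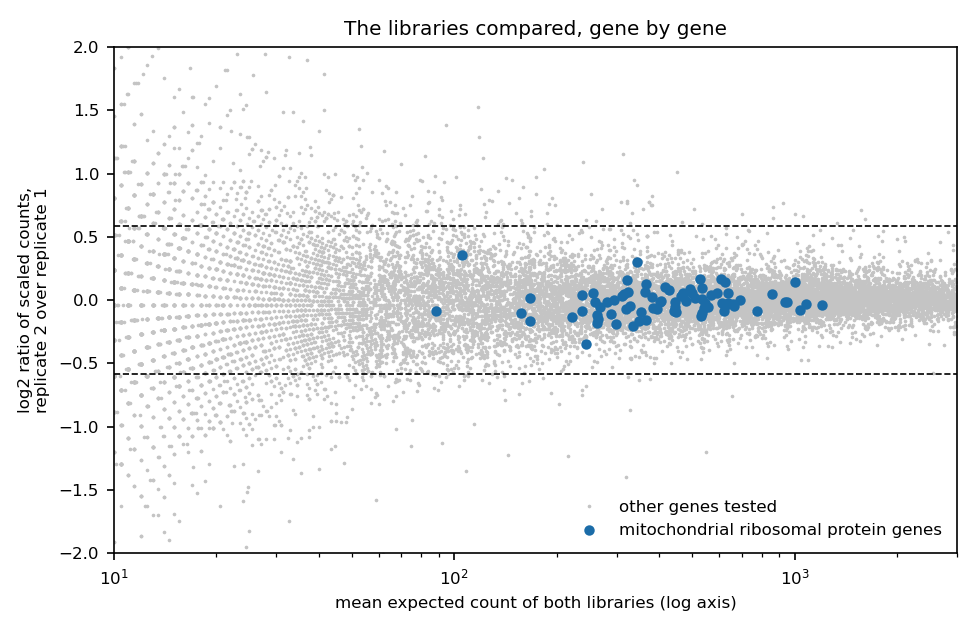
The log2 ratio of scaled expected counts, replicate 2 over replicate 1, against the mean expected count (log axis) for the 78 members (blue) and 18192 other tested genes (grey), of which 2030 lie beyond the axes. Dashed lines mark 1.5-fold in each direction, and all members lie between them, from −0.34 to 0.36.

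The members at the edges of this range are few. Mrpl55, a large subunit gene, had 269 (replicate 1) and 218 (replicate 2) expected counts, a ratio of 0.788 (95% interval of counting error 0.656 to 0.946; exact binomial test, adjusted p = 0.0747). Mrps12 had 355 and 317 counts (ratio 0.868, interval 0.744 to 1.01) and Mrpl44 had 315 and 284 (ratio 0.877, interval 0.744 to 1.03). Mrpl55 is the only 1 of these 3 whose interval left out equality, and it missed the adjusted threshold. In the other direction, Mrps24 had 305 and 386 counts, a ratio of 1.23 (interval 1.06 to 1.43; exact binomial test, adjusted p = 0.0577), the smallest adjusted p of any member. Mrpl19 had 562 and 650 counts, a ratio of 1.12 (interval 1.00 to 1.26). The largest ratio, 1.28 (interval 0.968 to 1.70), belonged to Mrpl23, with 91.1 and 119.8 counts. Its value rests on how reads were divided with another gene.

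Mrpl23 (ENSMUSG00000037772.13, chr7:142532686-142540747, mm10, plus strand) has a processed pseudogene, Mrpl23-ps1, on chromosome 2. Such a copy arises when a spliced mRNA is copied back into the genome. The coding sequence of the transcript Mrpl23-201 is 438 bases long, and all 438 bases are identical in the annotated transcript of the pseudogene. The first 90 coding bases of Mrpl23-201 and bases 18 to 107 of the pseudogene transcript are shown to make plain that a read from here cannot be assigned by its sequence; the letters are those of the reference annotation's transcripts, 5′ to 3′.
Mrpl23: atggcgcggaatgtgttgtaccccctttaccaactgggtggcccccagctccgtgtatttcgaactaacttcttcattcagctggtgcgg
Mrpl23-ps1: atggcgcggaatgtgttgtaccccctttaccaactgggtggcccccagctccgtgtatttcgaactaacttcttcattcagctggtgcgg
Of the 593 stretches of 100 bases in Mrpl23-201, 441 (74.4%) occur unchanged in the pseudogene transcript.

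The deposited tables divided these reads in opposite ways. The gene tables gave Mrpl23 91.1 and 119.8 expected counts and the pseudogene 213.9 and 218.2, so that Mrpl23 held 29.9% and 35.4% of their sum. The second transcript tables listed Mrpl23-ps1 at 0 in both libraries and gave Mrpl23 all of the sum, 315 and 355 estimated counts, or 45.9 and 47.1 TPM. The sum of both genes was nearly the same in either table, 305 and 338 counts in the gene tables. In the second tables Mrpl23 ranked 26th of the 78 members, where it was last in the gene tables. The summed counts of the pair had a ratio between libraries of 1.08 (interval 0.920 to 1.26), nearer to equality than that of Mrpl23 alone. Which of the loci was transcribed cannot be told from these tables.

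Mrps33, Mrpl53 and Mrps34 also shared reads, by the same mark, an expected count that was not whole together with a posterior standard deviation of at least 1% of the count. With Mrpl23 these were 4 members, or 5.13%, where 10.5% of all genes tested carried the mark. Mrps33 had 658 and 661 counts, and its processed pseudogene Gm5776 took a further 74.8 and 58.6 counts in the gene tables and was listed at 0 in the second tables. Mrpl53 had 330 and 329 counts and has most of its 100-base stretches (75.6%) in common with Gm42688, a protein-coding gene model. Gm42688 lies over the same locus, with exons that overlap 88.0% of the Mrpl53 exon bases on the same strand. Mrps34 had 541 and 547 counts and has 31.2% of its stretches in common with the nucleoside diphosphate kinase gene Nme3. Exons of Nme3 overlap 37.0% of the Mrps34 exon bases on the same strand. In all, 22 members have at least 1 stretch of 100 bases that occurs in a transcript of another gene. The other genes are 17 pseudogenes, of 14 members, and 18 that are no pseudogenes, among them Dnajb14 with 3702 and 3679 counts of its own. In the second tables the pseudogene Gm43498, which shares stretches with Mrpl48, had 203 and 195 estimated counts. Gm9894, which shares stretches with Mrpl13, had 31.5 and 34.5 there. Of the pseudogenes, 12, with Gm43498 and Gm9894 among them, held at most 11 expected counts in either library of the gene tables. The other 5 are Mrpl23-ps1, Gm5776, Mrpl48-ps with 48.9 and 45.5 counts beside 932 and 947 for Mrpl48, Gm13328 with 37.0 and 31.1 counts beside 940 and 955 for Mrps5, and AC154457.3 with 33.7 and 32.1 counts beside 397 and 405 for Mrps10.

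Transcripts that were not annotated as protein-coding took a larger share of the summed TPM in the members than in expressed protein-coding genes. Such sums give abundant genes the most weight. The members have 343 annotated transcripts, of which 170 are protein-coding, and 68 members have at least 1 that is not. In the first transcript tables, which accompany the gene tables, these other transcripts held 27.5% and 26.4% of the members' TPM in replicates 1 and 2, where they held 16.4% of the TPM of expressed protein-coding genes in each library. In the second transcript tables the shares were 28.5% and 29.7% in the members and 19.4% and 19.3% in expressed protein-coding genes. By class, transcripts with a retained intron held 14.3% and 13.7% of the members' TPM in the first tables, processed transcripts with no open reading frame held 7.87% and 7.53%, and those annotated as targets of nonsense-mediated decay held 5.31% and 5.14%. By expected counts, which are not divided by length, the members' share outside protein-coding transcripts was smaller, 19.9% and 19.2% in the first tables. The share by counts was not computed for other genes, so the comparison holds for TPM only.

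In 12 members the single highest transcript was not protein-coding in both libraries of the first tables, or 15.4% of the members, where 5.83% of expressed protein-coding genes showed this. In the second tables there were 16 such members, or 20.5%, where the share of expressed protein-coding genes was 7.76%. The same call was made in both kinds of table for 10 members, Mrpl3, Mrpl15, Mrpl32, Mrpl51, Mrpl57, Mrps16, Mrps24, Mrps25, Mrps26 and Mrps35.

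Mrps26, a small subunit gene particular to mitochondria, had the largest share in the first tables. There its transcript Mrps26-201, annotated with a retained intron, had 30.1 and 30.6 TPM in the 2 libraries, and its protein-coding transcript Mrps26-202 had 2.75 and 2.80 TPM. The transcript with the intron held 91.6% of the gene's TPM in each library of the first tables and 91.7% and 92.0% in the second tables, where Mrps16 had more (95.7% and 94.9%). In expected counts the gap was narrower, at 594 and 632 for Mrps26-201 and 237 and 252 for Mrps26-202. The transcripts differ in length, 1057 bases against 4278, and the last exon of the protein-coding one alone has 3758 bases. Of the bases of Mrps26-201, 92.4% lie in exons of Mrps26-202. The 80 bases that set it apart as an intron lie at chr2:130564228-130564307 (mm10, plus strand) and are shown in capitals between 30 exon bases on each side.
Mrps26-201: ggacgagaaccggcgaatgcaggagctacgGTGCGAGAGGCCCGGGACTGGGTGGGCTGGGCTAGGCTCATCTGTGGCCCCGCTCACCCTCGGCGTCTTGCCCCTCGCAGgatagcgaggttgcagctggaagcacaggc
The stretch begins with GT and ends with AG, as spliced introns do.

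The same picture of a short transcript beside a long protein-coding one recurred. Mrps16 had 89.6% and 89.8% of its TPM in transcripts that are not protein-coding, led by the 801-base Mrps16-202, and its protein-coding transcript of 2572 bases had 1.54 and 1.37 TPM. Mrpl15 had 90.6% and 87.4%, led by the 910-base Mrpl15-202. Mrps25 had 86.7% and 85.4%, led by the 565-base Mrps25-201, beside a protein-coding transcript of 6073 bases whose last exon has 5684. Mrpl57 had 86.3% and 85.4%, led by a 519-base transcript with a retained intron, and its protein-coding transcript of 2877 bases had 4.05 and 4.21 TPM. Mrpl51, Mrpl32 and Mrps24 had between 83.7% and 88.8% in each library. In these genes most of the bases of the protein-coding transcript lie in a long last exon, and the short transcript is shorter than that exon.

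Mrps14 showed how far the assignment turned on the table. The first tables gave 23.6 and 21.6 TPM to Mrps14-201, a 674-base transcript annotated as a target of nonsense-mediated decay, and 0.31 and 0.62 TPM to Mrps14-202, a protein-coding transcript of 787 bases. The second tables listed Mrps14-201 at 0 in both libraries and gave Mrps14-202 46.3 and 45.4 TPM. Mrpl13 also had a highest transcript outside the protein-coding class in the first tables and not in the second.

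**Figure D3:**
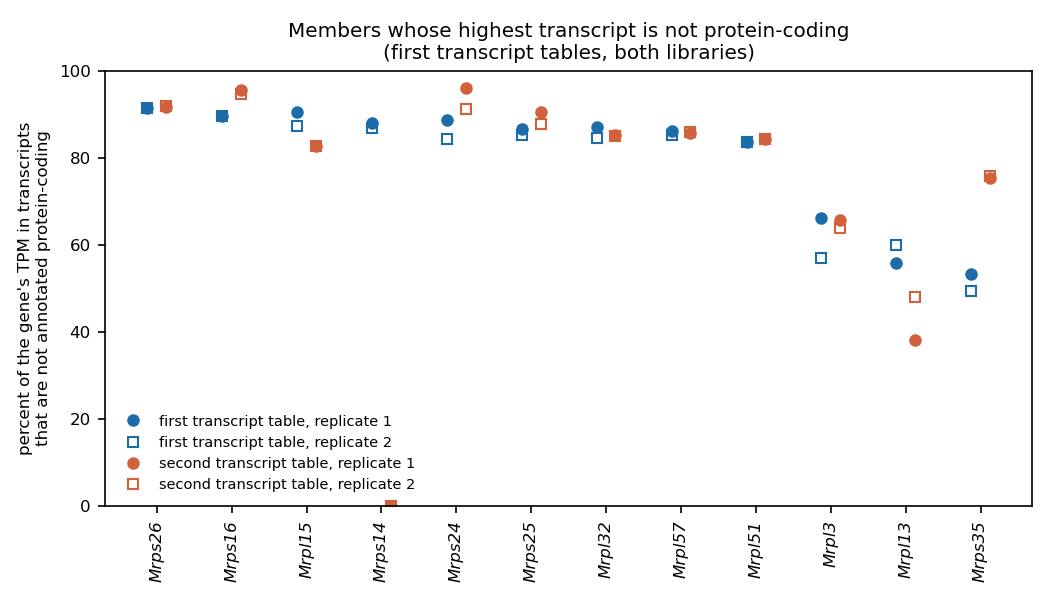
The share of each gene's TPM held by transcripts not annotated as protein-coding, in percent, for the 12 members whose highest transcript was of this kind in both libraries of the first transcript tables. Blue points are the first and orange points the second transcript tables, filled for replicate 1 and open for replicate 2; Mrps26 stands at 91.6% to 92.0% in all 4 tables, and Mrps14 falls to 0% in the second tables.

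The gene tables and the second transcript tables placed most members alike once their scales were matched. In the second tables TPM was higher for nearly all genes: 69 of 78 members were at least 1.5-fold higher in both libraries and none lower, where 78.1% of expressed protein-coding genes were that far apart in either direction. The median log2 difference was 0.80 in the members and 0.75 in expressed protein-coding genes. With TPM of both tables rescaled over protein-coding genes, 6 members remained that far apart, 5 higher and 1 lower in the second tables, or 7.69%, where 4.17% of expressed protein-coding genes were. The Spearman correlation of the members' levels between the tables was 0.89 (n = 78 genes, from the same reads). Mrps33 led the members in the second tables with 112.6 and 113.1 TPM, ahead of Mrps21 with 99.3 and 97.0 TPM.

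Rescaled, Mrpl23 was higher in the second tables by 3.04 and 2.28 on the log2 scale in replicates 1 and 2. Mrpl27 followed with 0.94 and 1.03, Mrpl35 with 0.87 and 0.70, Mrpl3 with 0.75 and 0.60, and Mrpl22 with 0.62 and 0.66. Short transcripts carried part of the difference for Mrpl27 and Mrpl35. Mrpl27-203, of 442 bases, had 0 and 0.66 TPM in the first tables and 31.4 and 32.4 TPM in the second, from 61.7 and 64.1 estimated counts. Mrpl35-203, of 522 bases, had 0 TPM in each library of the first tables and 19.1 and 10.8 TPM in the second. The tables also differ in the effective length that they give such short transcripts, and its part was not tested.

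Mrpl17 was the 1 member far lower in the second tables, by −1.15 and −1.11 on the log2 scale. The first tables gave its transcripts of 459 and 380 bases, Mrpl17-204 and Mrpl17-205, 17.0 and 21.8 TPM and 10.6 and 9.80 TPM, and the second tables gave Mrpl17-204 0 and Mrpl17-205 0.69 and 0 TPM. Its place fell from the 6th to the 46th of the 78 members. The next members in this direction were within 1.5-fold: Mrpl15 with −0.50 and −0.32, Mrpl38 with −0.44 and −0.42, Mrpl49 with −0.45 and −0.36, and Mrps5 with −0.42 and −0.28.

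**Figure D4:**
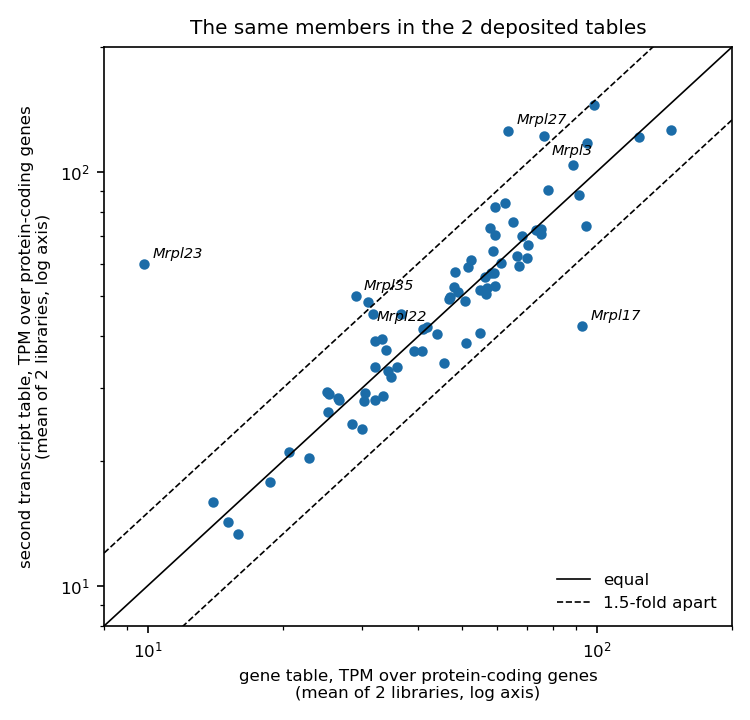
Each member's mean TPM over the 2 libraries, rescaled over protein-coding genes, in the gene table (x) and in the second transcript table (y), both on log axes. The solid line marks equal values and the dashed lines 1.5-fold; the 6 named genes lie beyond these in both libraries, 5 higher in the second table and Mrpl17 lower.

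The members are spread over 17 chromosomes, with 11 on chromosome 11 and 8 on chromosome 17. Many start close to a gene on the opposite strand. Of the 78, 33 (42.3%) have a protein-coding neighbour on the opposite strand whose start lies within 1000 bases of their own, where 15.4% of expressed protein-coding genes do (1962 of 12733). Mrpl46 and Mrps11 are such neighbours of each other, with levels of 11.7 and 11.8 TPM and of 17.3 and 14.3 TPM. Several other neighbours also serve mitochondria. Mrps12 starts 172 bases from Sars2, the mitochondrial seryl-tRNA synthetase gene, and had 26.1 and 22.4 TPM where Sars2 had 4.88 and 4.60 TPM. Mrpl36 lies by Ndufs6 and Mrpl47 by Ndufb5, both genes of respiratory complex I, and Mrpl43 by Twnk, the mitochondrial DNA helicase gene. The 33 include members that start apart from their neighbour and members that overlap it at the starts. Of the pairs named here, all but Mrps12 and Sars2 overlap in this way.

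Levels of neighbours that start close together on opposite strands ranged from alike to far apart. Mrpl47 had 8.86 and 7.65 TPM and Ndufb5 had 78.4 and 76.4 TPM. Mrpl49 had 21.2 and 18.9 TPM beside Fau, which encodes a cytosolic ribosomal protein and had 262 and 267 TPM. Mrpl30 had 55.4 and 54.1 TPM where Mitd1, 66 bases away, had 5.73 and 5.48 TPM. Other pairs were close. Mrpl50 had 12.65 and 12.49 TPM and Zfp189 had 12.06 and 13.28 TPM. Mrps27 had 11.47 and 10.64 TPM and Ptcd2 had 12.18 and 11.15 TPM. How far apart other pairs of genes lie was not computed. Over the 33, members were higher than their neighbour in both libraries in 18 and lower in both in 14. Mrps11 and Mrpl46, as neighbours of each other, enter both of these numbers. Of the neighbours, 27 reached 1 TPM in both libraries. None of those tested was apart between the libraries, where 1.89% of all genes tested were. Lrrc46, Eme1, Oaz3 and B430218F22Rik had too few counts to be tested. Exons of 33 members overlap those of another gene, on the opposite strand for 28, and since the strand setting of the counting is not given in the sources used here, their values may include reads of the partner.

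RefSeq promoter windows (GRCm38.p6, from 250 bases before to 50 after a start) were matched for 69 of the 78 members, giving 75 windows. No window was matched for Mrpl4, Mrpl13, Mrpl15, Mrpl19, Mrpl38, Mrpl54, Mrps28, Mrps34 and Mrps35. Short words for 5 factors were searched on both strands, and a match of 1 could overlap that of another. CCGGAAG, the core of ETS factor sites, occurred in 34.7% of the members' windows, where 8.86% of all 32851 windows and 16.3% of the windows of expressed protein-coding genes hold it. AAGATGGC, a YY1 word, occurred in 16.0% beside 2.75% and 4.21%, and GCGCATGC, an NRF1 word, in 10.7% beside 2.71% and 5.03%. CCAAT occurred in 40% beside 37.4% and 37.5%, and GGGCGG, an SP1 word, in 52.0% beside 35.7% and 62.5%. The ETS, YY1 and NRF1 words were thus more frequent in the members' windows than in either set. CCAAT was close to its share in both sets. GGGCGG was less frequent than in the windows of expressed genes and more frequent than in all windows. The members' windows had a median GC content of 58.7% and all windows 52.7%. It was not computed for the windows of expressed protein-coding genes.

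Stretches of 120 bases that end just before the RefSeq start are shown for 3 members with an ETS or NRF1 word, in capitals on either strand, to let the words be seen in place. Mrpl22 has both, and Mrpl52 and Mrpl17 are among the 6 highest members. They come from chr11:58171544-58171663 (plus strand), chr14:54426789-54426908 (plus strand) and chr7:105811088-105811207 (minus strand).
Mrpl22: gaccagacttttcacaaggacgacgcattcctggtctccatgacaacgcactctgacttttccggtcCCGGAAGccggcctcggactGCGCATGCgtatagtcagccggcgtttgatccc
Mrpl52: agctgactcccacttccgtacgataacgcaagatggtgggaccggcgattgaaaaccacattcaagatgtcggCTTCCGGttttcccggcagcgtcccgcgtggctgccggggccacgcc
Mrpl17: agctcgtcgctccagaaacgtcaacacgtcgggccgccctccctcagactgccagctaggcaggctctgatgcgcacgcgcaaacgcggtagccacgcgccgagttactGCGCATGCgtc
A match is a description of the letters in a window and no measure of binding. Of the members with the NRF1 word shown, Mrpl22 stood at 14.4 and 12.9 TPM and Mrpl17 at 38.7 and 42.8 TPM in the gene tables, and this order turned in the second tables, at 38.8 and 36.5 TPM and at 30.6 and 35.4 TPM.

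The members were set beside the other parts of mitochondrial translation. Of the 5 subunits with other kinds of symbol, Dap3, a GTP-binding protein of the small subunit, had 45.3 and 44.3 TPM, Aurkaip1 had 38.0 and 38.9 TPM, and the median was 28.2 and 29.2 TPM. The 29 genes for assembly of the mitochondrial ribosome had a median of 9.17 and 9.16 TPM, with the helicase gene Dhx30 highest at 66.2 and 60.8 TPM and Grsf1, an RNA granule protein gene, next at 36.6 and 33.8 TPM. The 15 translation factor and mRNA stability genes had medians of 10.1 and 10.2 TPM, led by Slirp (37.7 and 35.8 TPM), a partner of Lrpprc in keeping mitochondrial mRNAs stable, and the elongation factor gene Tufm (35.5 and 37.2 TPM). The 17 mitochondrial tRNA synthetase genes had medians of 9.84 and 8.93 TPM, led by Tars2 (19.2 and 20.3 TPM) and Lars2 (18.1 and 17.2 TPM). None of these genes was apart between the libraries, and 0 passed the adjusted threshold with no minimum on the fold.

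Genes of the respiratory chain and of the cytosolic ribosome stood higher. The 36 nuclear genes of complex I, whose products are made in the cytosol and join subunits made in the mitochondrion, had medians of 84.4 and 79.5 TPM, led by Ndufa4 (289 and 286 TPM, since assigned to complex IV) and Ndufa3 (247 and 228 TPM). The 76 cytosolic ribosomal protein genes had medians of 163 TPM in each library, led by Rpl41 (598 and 596 TPM) and Rplp1 (580 and 591 TPM), and 39 of them shared reads with other genes. The 13 mRNAs of the mitochondrial genome had medians of 2214 and 2046 TPM, led by mt-Co1 (5833 and 5491 TPM) and mt-Cytb (3370 and 3164 TPM). The rRNAs of the mitochondrial ribosome, mt-Rnr2 and mt-Rnr1, had 42973 and 43100 TPM and 30973 and 30496 TPM. None of the genes of these lists was apart between the libraries at 1.5-fold. With no minimum on the fold, by the exact binomial test and adjusted p, 0 of the complex I genes passed, as in the members. Of the cytosolic ribosomal protein genes 5 passed, all higher in replicate 2, and mt-Rnr2 passed. Of the mitochondrial mRNAs 12 passed, 11 of them higher in replicate 1. The ratios of replicate 1 over replicate 2 were 1.49 for mt-Co2 and 1.34 for mt-Atp6, both of which shared reads. These RNAs have far more counts than the members, and a given ratio passes more easily at such depth.

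**Figure D5:**
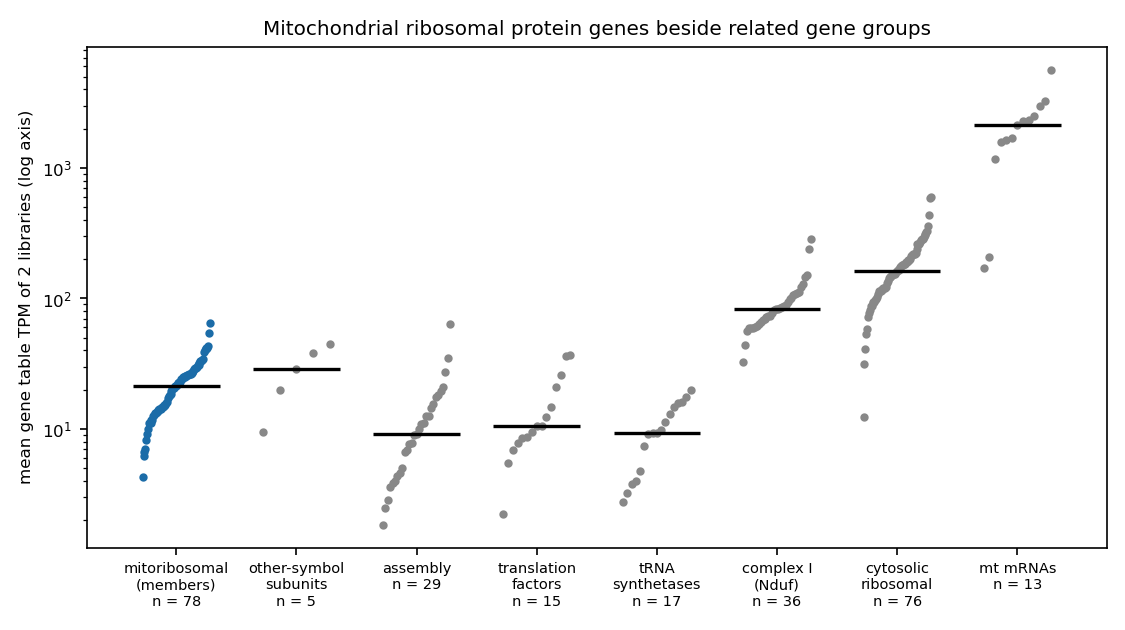
Mean gene table TPM of the 2 libraries (log axis) for each gene of 8 groups, ordered by level within a group, with a bar at the median; the members are blue and the other groups grey. The members lie above the assembly, translation factor and tRNA synthetase genes in the median and below the complex I, cytosolic ribosomal and mitochondrial mRNA groups.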

How the data were processed

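Per the file headers, the authors deposited for each library a gene table and a first transcript table with an expected count and TPM, the latter with each transcript's share of its gene in percent, and a second transcript table with an estimated count and TPM. Genes and coordinates follow mm10 and GENCODE M21, as the deposited description states. The sources used here do not give the programs, their versions, the aligner or the strand setting. TPM was scaled by the authors over all entries of a table.

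Expected counts were rounded for tests. Spike-in rows (0.421% and 0.408% of counts) were left out of them. Libraries were scaled with edgeR 4.0.16 (TMM) in R 4.3.3 and compared with SciPy 1.17.1. Intervals are exact 95% Clopper-Pearson intervals and cover counting error only, as no molecular identifiers mark independent molecules. Ratios add 0.5 to scaled counts and table differences add 0.01 TPM. Whether the samples are separate animals rests on the labels' replicate numbers, so ratios may hold technical spread.

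The members, gene lists and rules were chosen with earlier results of these data known. All members may be named. Those given in full were the extremes by level, library ratio and table difference, those that share reads, and the 2 highest of each list. Also given were those with a highest transcript outside the protein-coding class, those with a role of their own, and those with an opposite-strand neighbour within 1000 bases. Alternatives were other scales, count and TPM minima, the second tables, protein-coding TPM, and leaving out members or a library.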

Additional observations from a re-analysis of the deposited data

How the results depend on the processing

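Leaving out either library left 1 library, with no test between them, and gave medians of 21.28 to 21.83 TPM for the large subunit genes. In the second transcript tables the subunit medians were 38.8 TPM (large) and 39.9 TPM (small), and with TPM over protein-coding genes only 48.1 and 49.0 TPM. Moving Mrps30 and Mrps18a to the large subunit and leaving out Mrps36 gave a small subunit median of 22.0 TPM. Spike-in totals gave a median log2 ratio of 0.020, and rescaling over protein-coding genes left 6 members apart between tables. The number of members apart between the libraries was 0 under every scale, count minimum, fold minimum and table tried. All 78 members reached 0.5 TPM and 77 reached 5 TPM. Counts of 87 to 1205 per member and library limit the smaller ratios. No paired analysis was possible because there was 1 group.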
